A study of Mus musculus with 64 samples.

Results

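The 8 genes described here encode components and receptors of the complement system: the C1q chains *C1qa*, *C1qb* and *C1qc*, the central components *C4b* and *C3*, the anaphylatoxin receptors *C3ar1* and *C5ar1*, and *Serping1*, the C1 inhibitor. They were chosen by symbol, through their Ensembl identifiers in GENCODE vM21, and all 8 were among the 18432 genes of the table. RNA was sequenced from the frontal cortex and the hippocampus, dissected from both hemispheres of mice with the R87C (Arg87Cys) knock-in allele of *Cyfip2* on 1 chromosome (*Cyfip2*+/R87C, KI) and of their wild-type littermates (WT), all on the C57BL/6N background. Mice were taken at 1, 7, 14 or 28 weeks after birth (postnatal week, PWK). The study used males and females, and sex was not part of any comparison here. Each of the 16 groups of region, age and genotype held 4 libraries from 4 mice, 64 in all, and the labels name no drug or other treatment. The KI allele is constitutive, so that every cell of a KI mouse carries it. The study records spasms in the KI mice as neonates, a period without seizures, and spontaneous recurrent seizures at PWK 14 and 28, with deaths of KI mice from about PWK 14 on, so that the KI mice taken at PWK 28 were survivors.

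Complement is a cascade of plasma and tissue proteins that tags material for removal. The classical pathway starts when C1q, built from its A, B and C chains, binds a target and activates the proteases C1r and C1s, which cleave C4 and C2 and then lead to the cleavage of C3. Fragments of C3 stay on the target, where phagocytes recognise them, while the small fragments C3a and C5a signal through the receptors encoded by *C3ar1* and *C5ar1*. In the brain, microglia are the main source of C1q, astrocytes are a known source of C4 and C3, and C1q and C3 take part in the removal of synapses during development.

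Values are the deposited normalised counts, and the 64 libraries summed to between 29225576 and 32601227 after this scaling. A gene was called when its Benjamini-Hochberg adjusted p over all genes tested was under 0.05 by limma, and differences are on the log2(value + 1) scale. Bulk tissue was measured, so that more cells of a type and more RNA per cell cannot be told apart for any of these genes. The edited gene is no check of the labels, because the allele changes a codon. With all ages pooled, *Cyfip2* lay between 18833 and 38975 in KI cortex and between 16451 and 44053 in WT cortex. In the hippocampus, pooled in the same way, it lay between 15311 and 34409 in KI and between 14909 and 35756 in WT libraries. These ranges do not compare the genotypes within an age. 1 library, replicate 1 of the KI hippocampus at PWK 14, stood apart in most of the 8 genes. The members' differences from WT in that group are given with and without this library. Calls of markers and of other complement genes there are given only with it. Among the libraries of that group it also had the highest summed level of 10 microglial markers, 28612 against 10767 to 15549 in the other 3 KI libraries, and of 8 astrocyte markers, 259284 against 82111 to 94045. Of that astrocyte sum the marker *Gfap* was 131431, against 40059 to 47169 in the other 3 KI libraries.

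The members lie on 5 chromosomes of GRCm38, all on the minus strand. *C1qb* (chromosome 4, 136880129 to 136886187), *C1qc* (136889804 to 136893065) and *C1qa* (136895917 to 136898803) stand side by side in a block of 18.7 kb. *C4b* (34728380 to 34743882) and *C3* (57203970 to 57228136) are both on chromosome 17. *C3ar1* lies on chromosome 6 (122847138 to 122856161), *C5ar1* on chromosome 7 (16246743 to 16259540) and *Serping1* on chromosome 2 (84765387 to 84775444). *C4b* has a near-identical paralog, *C4a*, which shares 48.3% of the 31-base words of the annotated *C4b* transcripts, so that the division of reads between the pair is uncertain. Of the other members, *C3ar1* shared 0.470% of its words with other genes and the remaining 6 shared none.

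The promoters of *C1qb* and *C1qc* are shown because both genes had similar differences in the comparisons below, and that of *C3* because it rose in the KI hippocampus at PWK 28 from a far lower level. Each sequence runs 5′ to 3′ on the minus strand, from 250 bases before the RefSeq start to 50 bases after it on build GRCm38.p6, and RefSeq gave a promoter for 5 of the 8 members. Capitals mark matches on either strand to GAGGAA, an ETS core of the kind PU.1 recognises, or to TTNNGNAA, a C/EBP-like motif. Among 32851 mouse promoters of the same length, 28.3% held the first and 40.7% the second.
C1qb, chr4:136886151-136886450: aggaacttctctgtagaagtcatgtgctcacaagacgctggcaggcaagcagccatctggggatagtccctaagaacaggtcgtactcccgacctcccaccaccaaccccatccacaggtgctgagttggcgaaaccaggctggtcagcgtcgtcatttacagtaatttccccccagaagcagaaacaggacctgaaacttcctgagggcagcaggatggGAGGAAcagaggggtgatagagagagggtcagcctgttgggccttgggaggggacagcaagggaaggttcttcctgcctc
C1qc, chr4:136892865-136893164: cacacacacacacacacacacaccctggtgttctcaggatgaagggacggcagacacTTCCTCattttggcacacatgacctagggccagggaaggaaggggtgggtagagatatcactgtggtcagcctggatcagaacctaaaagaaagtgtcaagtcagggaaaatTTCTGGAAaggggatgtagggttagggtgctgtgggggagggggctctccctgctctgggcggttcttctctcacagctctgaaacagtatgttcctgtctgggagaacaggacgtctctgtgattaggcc
C3, chr17:57228087-57228386: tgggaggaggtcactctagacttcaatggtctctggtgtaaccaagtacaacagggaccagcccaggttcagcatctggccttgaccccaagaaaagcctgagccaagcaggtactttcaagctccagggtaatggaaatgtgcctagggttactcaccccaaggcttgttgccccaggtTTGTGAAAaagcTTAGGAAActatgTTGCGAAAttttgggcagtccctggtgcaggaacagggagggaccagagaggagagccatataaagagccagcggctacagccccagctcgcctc
The *C1qb* promoter held 1 ETS core, which began 30 bases before the start. *C1qc* held 1 on the opposite strand, 193 bases before the start, and 1 C/EBP-like match 81 bases before it. In the *C3* window, C/EBP-like matches began 70, 58 and 45 bases before the start, the last of which read as a match on both strands. None of the 3 windows held TTCNNNGAA, a STAT-type motif found in 8.30% of promoters, or GAAA followed after 2 bases by another GAAA, an interferon response-type motif found in 3.44%. Of the promoters not shown, that of *C3ar1*, a gene also called in the KI hippocampus, held no match to any of these motifs. That of *C5ar1* held 1 C/EBP-like match, 157 bases before the start. All these matches describe letters and were not tested for binding.

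The C1q chains had the highest levels of the 8 genes per kb in WT mice. Per kb of exon at PWK 28 in the cortex, *C1qa* was at 996 ± 101 (SD, n = 4), *C1qb* at 961 ± 98.3 and *C1qc* at 528 ± 53.2. *C4b* followed at 152 ± 20.8 and *Serping1* at 91.0 ± 23.3. The receptors were low, with *C3ar1* at 20.4 ± 3.67 and *C5ar1* at 14.9 ± 8.00, and *C3* was lowest at 3.43 ± 2.67. The neighbours *C1qa* and *C1qb*, and *C3ar1* and *C5ar1*, did not differ beyond their spread in this order. Before division by exon length, *C1qa*, *C1qb* and *C1qc* had similar mean counts, at 1036, 1046 and 1019. Their summed exon lengths were 1.04, 1.09 and 1.93 kb, so the lower *C1qc* value depends on the annotated length. In the WT hippocampus at the same age *C4b* reached 387 ± 18.6 and *C3* 12.8 ± 2.29 per kb, while *C1qa* was at 949 ± 30.0. The plot of WT levels by age shows the C1q chains on top in both regions and *C4b* rising through all ages in the hippocampus.

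**Figure D1:**
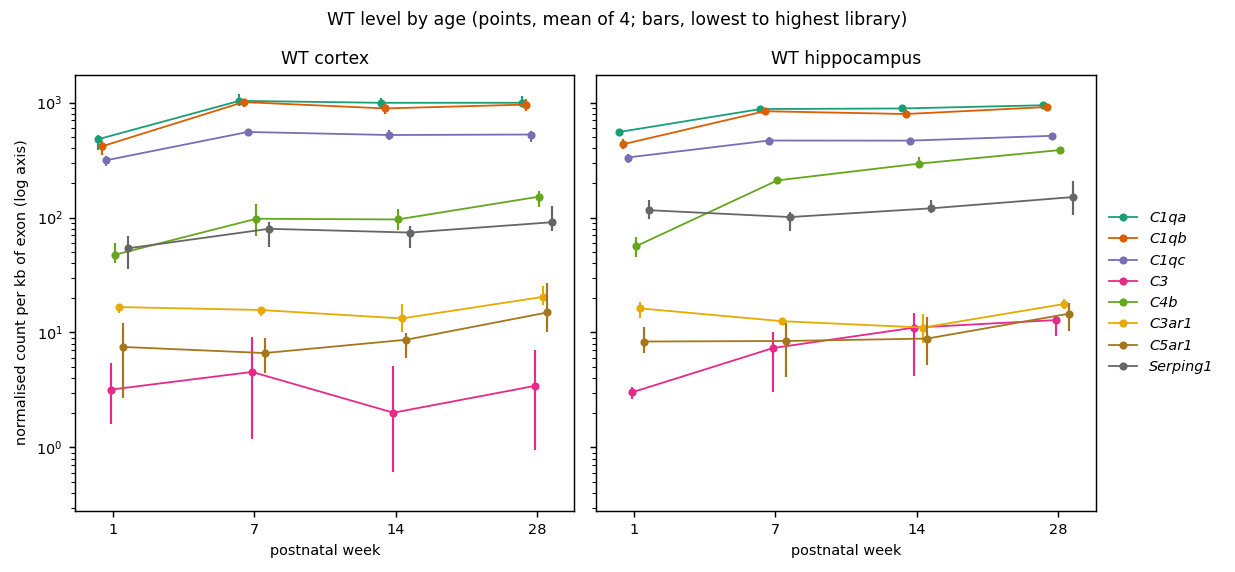
Normalised count per kb of exon (log axis) against postnatal week for the 8 genes in WT cortex (left) and WT hippocampus (right); points are means of 4 libraries and bars run from the lowest to the highest library. The C1q chains rose from PWK 1 to PWK 7 and were not called at later steps, and *C4b* rose at each step in the hippocampus.

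Between PWK 1 and PWK 7 the C1q chains rose in WT mice of both regions. In the cortex the log2 difference was 1.11 for *C1qa* (adjusted p = 2.19e-06), 1.28 for *C1qb* (adjusted p = 7.22e-08) and 0.82 for *C1qc* (adjusted p = 5.91e-07). The same step in the hippocampus was 0.66, 0.95 and 0.49, with adjusted p of 1.74e-06, 2.68e-07 and 7.66e-05. *C4b* also rose, by 1.01 in the cortex (adjusted p = 0.000406) and by 1.92 in the hippocampus (adjusted p = 7.96e-08). In the cortex *Serping1* rose by 0.57 (adjusted p = 0.0303), a call that was lost without PWK 1 replicate 3 or 4 or PWK 7 replicate 1, 2 or 4 (adjusted p of 0.0597 to 0.0844). In the hippocampus *C3* rose by 1.101 (adjusted p = 0.017), a call that was lost without PWK 7 replicate 1 or 4 (adjusted p of 0.0538 and 0.0537) and with all 64 libraries in 1 fit (0.149). Thus 5 of the 8 members were called in each region, where 65.3% of all genes tested were called in the cortex and 61.3% in the hippocampus, so that the members' share was near that of all genes.

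The C1q chains did not rise by the same amount. The log2 ratio of *C1qb* to *C1qc* per kb lay between 0.28 and 0.59 in the 16 libraries of PWK 1 and between 0.69 and 0.98 in the 48 libraries of the later ages, in both genotypes and regions. The median ratio went from 1.35 to 1.80 on the linear scale, and no library of PWK 1 overlapped a later one. The size of the ratio depends on the annotated exon lengths, which were the same for every library. The log2 ratio of *C1qb* to *C1qa* overlapped between these sets, at -0.47 to -0.09 and -0.29 to 0.13. These ratios are a description and were not tested.

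**Figure D2:**
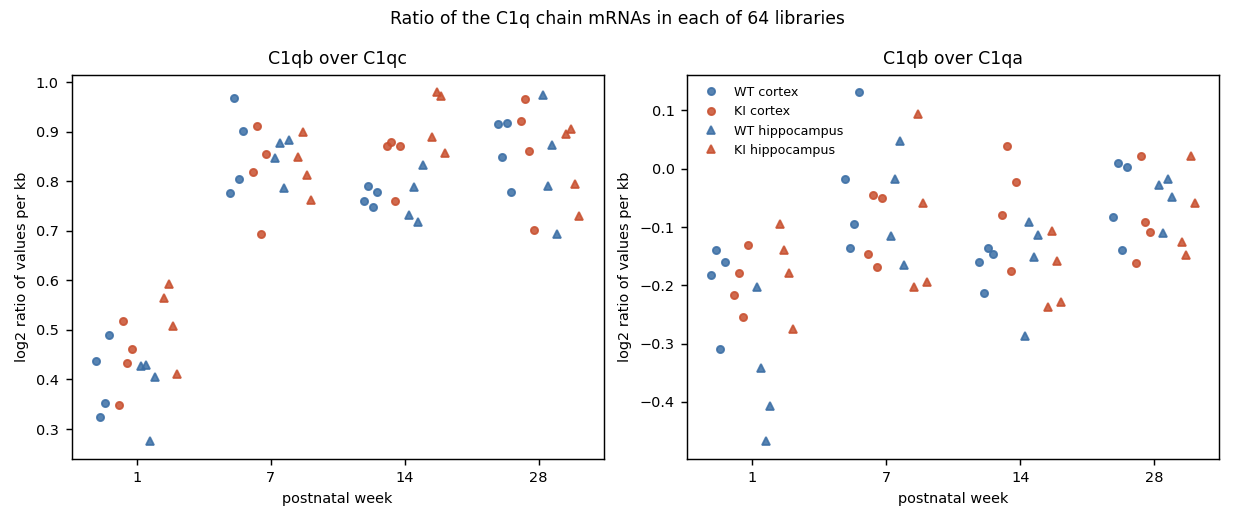
Log2 ratio of values per kb for *C1qb* over *C1qc* (left) and *C1qb* over *C1qa* (right) in each of 64 libraries by postnatal week; colour gives the genotype and shape the region. On the left the 16 libraries of PWK 1 lie at or below 0.59 and the 48 later libraries at or above 0.69, and on the right the ages overlap.

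Fewer members were called at the later steps in WT mice. In the cortex none of the members passed the test between PWK 14 and 7, where 5.32% of genes were called by limma and 1 member, *C1qb*, had an unadjusted p of 0.0323. Between PWK 28 and 14 *C4b* rose by 0.66 in the cortex (adjusted p = 0.00729, 12% of genes called). In the hippocampus *C4b* rose by 0.48 from PWK 7 to 14 (adjusted p = 0.0116, 1.99% of genes called) and by 0.40 from PWK 14 to 28 (adjusted p = 0.00822, 8.11% of genes called). *C3ar1* rose by 0.70 in that last step (adjusted p = 0.0459), but was called in only 1 of the 8 fits that each left out 1 library, the fit without PWK 14 replicate 3, with adjusted p of 0.0696 to 0.127 in the others. Both hippocampal *C4b* steps were lost when all 64 libraries were fitted together (adjusted p = 0.216 and 0.249).

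The central components were higher in the WT hippocampus than in the WT cortex from PWK 7 or 14 on. *C4b* was higher in the hippocampus at PWK 7 (log2 difference 1.15), PWK 14 (1.62) and PWK 28 (1.36), with adjusted p of 0.000132, 4.17e-07 and 3.11e-07. *C3* was higher there at PWK 14 by 2.61 (adjusted p = 0.00327) and at PWK 28 by 2.14 (adjusted p = 0.00315). *Serping1* was higher at PWK 1 by 1.12, at PWK 14 by 0.71 and at PWK 28 by 0.71, with adjusted p of 0.000707, 0.00246 and 0.018. Without hippocampal replicate 1 the last of these missed the threshold (adjusted p = 0.0504). The C1q chains were slightly lower in the hippocampus at PWK 7, by log2 differences of -0.23 for *C1qa*, -0.26 for *C1qb* and -0.25 for *C1qc* (adjusted p = 0.038, 0.0031 and 0.00346). The *C1qa* call was lost without cortical replicate 2 or 3 or hippocampal replicate 1, 2 or 3 (adjusted p of 0.0664 to 0.105), and with library totals made equal (adjusted p = 0.0795), and all 3 were lost when all 64 libraries were fitted together (adjusted p of 0.320 to 0.416). In all, 1, 4, 3 and 3 of the 8 members were called at PWK 1, 7, 14 and 28, where 34.7%, 40.8%, 34.6% and 37.8% of genes were called. Both regions came from each mouse, but the labels do not say that equal replicate numbers mark 1 mouse, so the libraries were treated as independent. Choroid plexus markers, which include *Ttr*, varied widely between hippocampal libraries (summed level of 5 markers 36915 to 125611 at PWK 28 against 360.3 to 21635 in the cortex), and their part in the *C3* and *Serping1* differences was not tested.

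The KI mice were then compared with WT littermates at each age. In the plot of every library, KI and WT overlap for nearly all members in young mice, and in the hippocampus they separate for 5 of 8 members at PWK 14 and 6 of 8 at PWK 28.

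**Figure D3:**
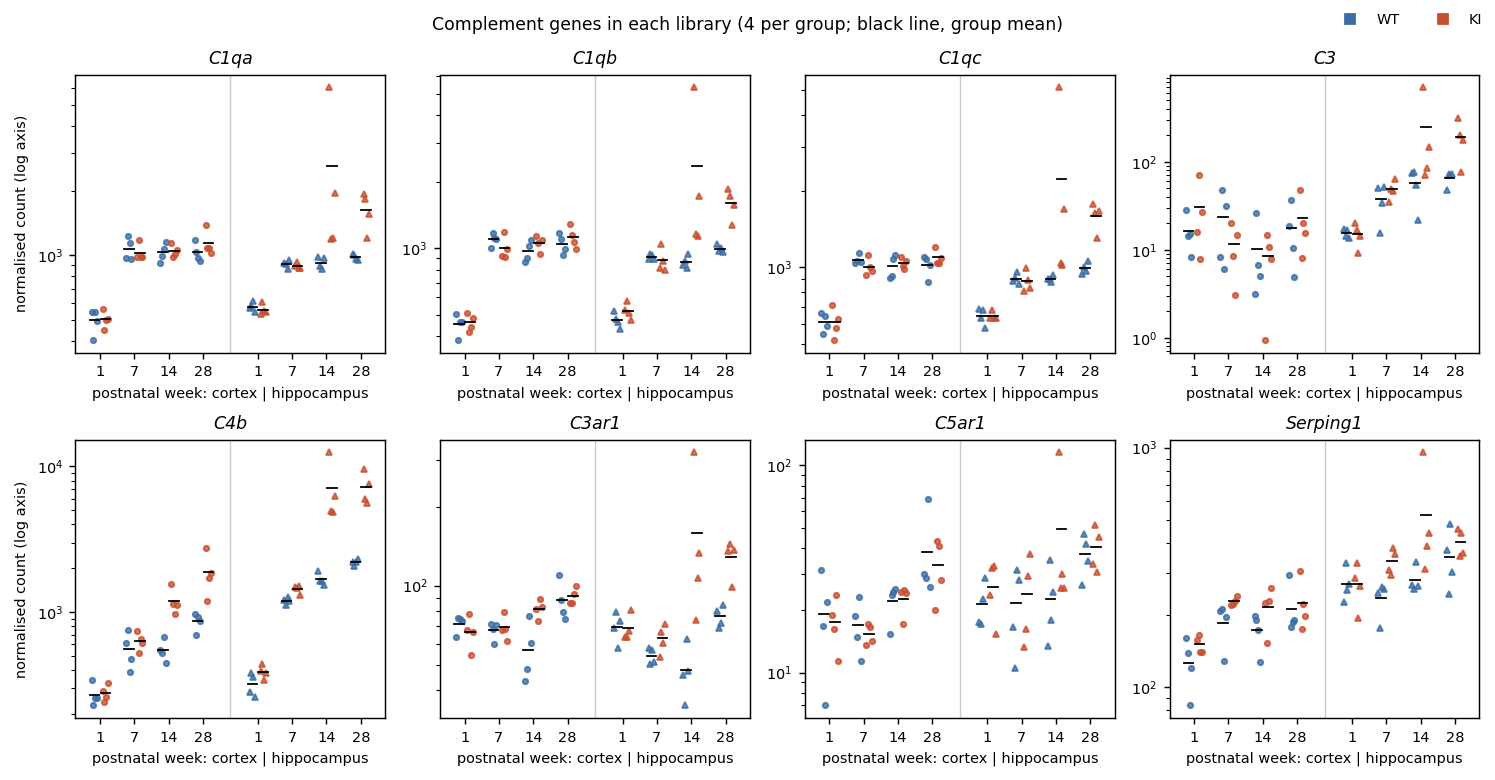
Normalised count (log axis) of each of the 8 genes in every library by postnatal week, cortex to the left and hippocampus to the right of the grey line in each panel; blue is WT, red is KI and black lines are means of 4. *C4b* separates KI from WT in both regions at PWK 14 and 28, the C1q chains do so in the hippocampus from PWK 14 on, and KI replicate 1 of the hippocampus at PWK 14 is the highest point for the C1q chains.

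At PWK 1 and PWK 7 none of the 8 members was called in either region. By limma, 0.00546% and 0.00545% of all genes were called in the cortex at these ages and 0.0109% and 0.0218% in the hippocampus. At an unadjusted p under 0.05, 0 and 1 members passed in the cortex and 1 and 2 in the hippocampus, beside 965 of 18311 and 1477 of 18358 genes in the cortex and 1003 of 18361 and 1144 of 18390 in the hippocampus. In the hippocampus at PWK 7, *C4b* was at 1494, 1463, 1500.0 and 1312 in KI and 1214, 1122, 1273 and 1187 in WT libraries. Every KI library lay above every WT library, by a log2 difference of 0.27 ± 0.062 SE (unadjusted p = 0.00121, adjusted p = 0.518 by limma). *Serping1*, which blocks C1r and C1s, did the same there, at 306, 294, 379.9 and 357 in KI and 246, 177, 261 and 255 in WT libraries (log2 difference 0.52 ± 0.14, adjusted p = 0.594). In the cortex at PWK 7 only *Serping1* had all KI libraries above all WT libraries, at 221 to 239 against 128 to 211 (adjusted p = 0.603). Among all genes the KI libraries lay wholly above WT in 1.55% and 2.45% in the cortex and 1.84% and 1.62% in the hippocampus at PWK 1 and 7, and among the members in 0 and 1 and in 0 and 2 of 8. Neither *C4b* nor *Serping1* passed the test at PWK 7.

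**Figure D4:**
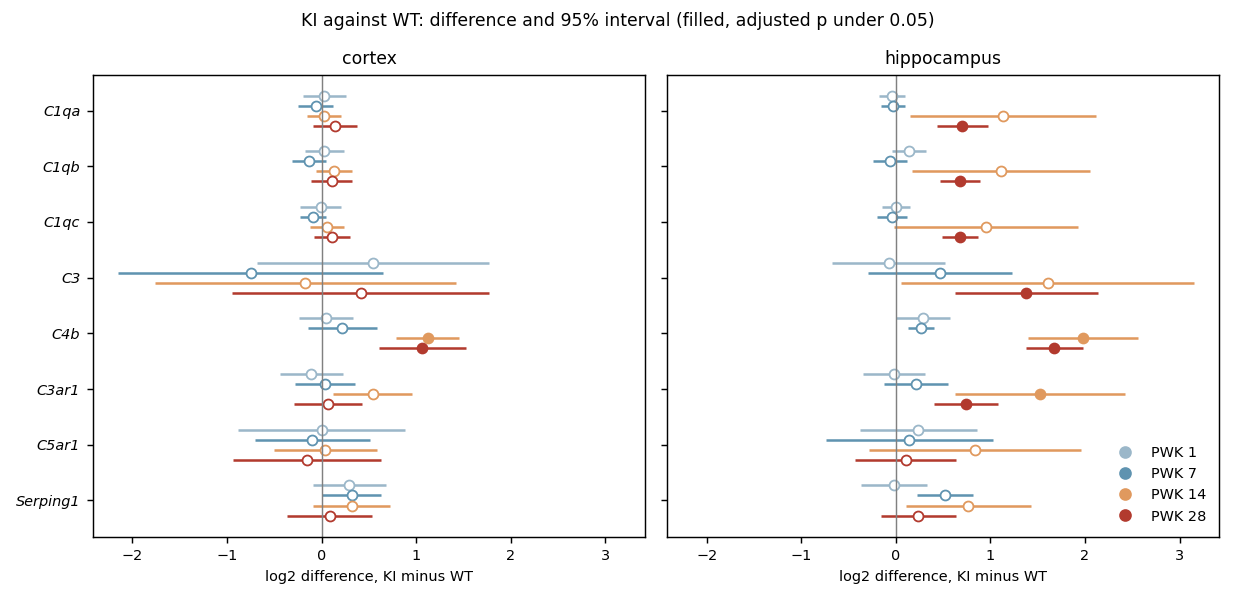
Log2 difference (KI minus WT) with its 95% confidence interval from limma for the 8 genes in cortex (left) and hippocampus (right), with colour for the postnatal week; filled points passed an adjusted p of 0.05. In the cortex only *C4b* at PWK 14 and 28 is filled, and in the hippocampus 2 genes are filled at PWK 14 and 6 at PWK 28.

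In the cortex, *C4b* rose in KI mice at PWK 14 and PWK 28, and no other member was called. C4 is the component that C1s cleaves after C1q has bound. At PWK 14 *C4b* was at 1569, 1132, 969 and 1126 in KI and 551, 522, 674 and 444 in WT libraries. The KI mean was 2.19 times the WT mean (log2 difference of 1.12 ± 0.15 SE, adjusted p = 0.00347), with the lowest KI library above the highest WT library. At PWK 28 it was at 2764, 1189, 1723 and 1842 in KI and 967, 698, 925 and 872 in WT libraries, again with no overlap. The ratio of means was 2.17 (log2 difference of 1.06 ± 0.21 SE, adjusted p = 0.0057). Both calls held in each of the 8 fits that left out 1 library, with log2 differences of 0.98 to 1.23 at PWK 14 and 0.86 to 1.26 at PWK 28. Thus 1 of 8 members was called at each age, where 5.18% of genes were called at PWK 14 and 22.2% at PWK 28, so the members' share at PWK 28 was not above that of all genes. KI libraries lay wholly above WT for 1 of 8 members at both ages and for 6.64% and 14.1% of all genes.

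The C1q chains stayed close to WT in the cortex. *C1qa* at PWK 28 was at 1379, 1082, 1087 and 1027 in KI and 1182, 1042, 978 and 943 in WT libraries, which overlap. The 95% interval of the log2 difference was -0.09 to 0.37 for *C1qa*, -0.11 to 0.32 for *C1qb* and -0.08 to 0.30 for *C1qc* at PWK 28, and at PWK 14 it was -0.15 to 0.20, -0.06 to 0.32 and -0.13 to 0.23. A rise of the size seen in the hippocampus at PWK 28 lay outside these intervals. *C3* was too low and variable in the cortex for a narrow estimate, at 48.0, 8.14, 20.1 and 15.6 in KI and 18.8, 36.4, 10.4 and 4.93 in WT libraries at PWK 28 (interval -0.94 to 1.77). *C3ar1*, the C3a receptor, was at 81.4, 73.2, 88.7 and 82.9 in KI and 43.1, 48.2, 76.2 and 60.5 in WT libraries at PWK 14, a log2 difference of 0.54 ± 0.19 that missed the threshold (adjusted p = 0.136). The differences of *C5ar1* and *Serping1* had adjusted p between 0.373 and 0.951 at these ages. The median log2 difference of the 8 members was 0.09 at PWK 14 and 0.11 at PWK 28, beside -0.00179 and -0.00339 over all genes tested.

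In the hippocampus at PWK 14, *C4b* and *C3ar1* were called higher in KI mice. *C4b* was at 12472, 4913, 4899.6 and 6281 in KI and 1904, 1642, 1629 and 1529 in WT libraries. Even the lowest KI library was above 2 times the highest WT library. The ratio of means was 4.26 (log2 difference of 1.98 ± 0.26 SE, adjusted p = 0.00203), and without KI replicate 1 it was 3.20 (log2 difference 1.67, adjusted p = 4.31e-05). *C3ar1* was at 321, 73.7, 107 and 133 in KI and 45.5, 35.0, 62.3 and 47.3 in WT libraries, with no overlap (log2 difference of 1.52 ± 0.40 SE, adjusted p = 0.0322). Without KI replicate 1 its log2 difference was 1.11 (adjusted p = 0.0176), and the call was lost without KI replicate 3 or 4 or WT replicate 1, 2 or 4 (adjusted p of 0.0512 to 0.0929).

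The 3 C1q chains were at similar levels in this group and split the KI libraries in the same way. *C1qa* was at 6047, 1189, 1207 and 1941 in KI and 978, 890.2, 862 and 969.7 in WT libraries. *C1qb* was at 5365, 1155, 1132 and 1734 in KI and 839, 874, 812 and 938 in WT libraries. *C1qc* was at 5143, 1039.7, 1024 and 1699 in KI and 898, 898, 877 and 934 in WT libraries. For all 3 genes KI replicate 1 was the highest, replicate 4 the next, and the other 2 KI libraries lay just above the WT range. None was called, with log2 differences of 1.13 ± 0.44, 1.11 ± 0.42 and 0.95 ± 0.43 SE (adjusted p = 0.112, 0.104 and 0.166). Without KI replicate 1, whose *C1qa* level was 4.18 times the mean of the other 3 KI libraries, the log2 differences were 0.61, 0.60 and 0.43 (adjusted p = 0.0261, 0.0167 and 0.0859), so that *C1qa* and *C1qb* were then called.

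*C3* showed the same library in front at PWK 14, at 703, 70.0, 84.2 and 147 in KI and 75.0, 76.3, 53.9 and 21.7 in WT libraries. The groups overlapped and the difference was not called (log2 difference 1.61 ± 0.69, adjusted p = 0.145, and 0.89 with adjusted p = 0.192 without KI replicate 1). *C5ar1*, the C5a receptor, was at 115, 25.6, 30.0 and 25.7 in KI and 13.5, 35.1, 18.0 and 24.4 in WT libraries, and only replicate 1 lay above WT (adjusted p = 0.287). Its log2 difference without KI replicate 1 was 0.32 (adjusted p = 0.548 by limma). *Serping1* was at 954, 309, 389 and 440.5 in KI and 267, 257, 331 and 263 in WT libraries, of which 3 KI libraries lay above all WT libraries (log2 difference 0.77, adjusted p = 0.109). That difference was 0.43 without KI replicate 1 (adjusted p = 0.0653 by limma). Thus 2 of 8 members were called where 15.6% of all genes were, and 5 of 8 had every KI library above every WT library where 11.6% of all genes did. Without KI replicate 1 the call covered 4 members, and with all 64 libraries in 1 fit 6. The median log2 difference over the 8 members was 1.12, beside 0.00602 over all genes. This median includes KI replicate 1. With that library left out, the members' log2 differences were smaller, from 0.32 for *C5ar1* to 1.67 for *C4b*.

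In the hippocampus at PWK 28, 6 of the 8 members rose in KI mice, where 15.8% of all genes were called. The 3 C1q chains rose by nearly the same amount. *C1qa* was at 1936, 1833, 1206 and 1560.5 in KI and 1018, 1008, 968 and 953 in WT libraries. *C1qb* was at 1856, 1731, 1281 and 1568 in KI and 1044, 976, 1000.5 and 963 in WT libraries. *C1qc* was at 1773, 1641, 1311 and 1678 in KI and 943, 1001, 969 and 1057 in WT libraries. Every KI library lay above every WT library for all 3 chains, and the WT libraries were tight, at 987 ± 31.2, 996 ± 35.6 and 993 ± 49.0 (SD, n = 4). The log2 differences were 0.70 ± 0.12, 0.68 ± 0.10 and 0.68 ± 0.087 SE (adjusted p = 0.00318, 0.00119 and 0.000585), or ratios of means of 1.66, 1.62 and 1.61.

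The largest difference among the members at this age was that of *C4b*, at 9583, 6005, 5629.9 and 7556 in KI and 2214, 2059, 2217 and 2316 in WT libraries. Its KI mean was 3.27 times the WT mean (log2 difference of 1.68 ± 0.14 SE, adjusted p = 3.33e-05), and the groups did not overlap. *C3*, whose cleavage is the step on which the complement pathways converge, was at 314, 199, 76.3 and 179 in KI and 48.3, 72.0, 71.0 and 72.6 in WT libraries. The groups met closely, since the lowest KI library lay only just above the highest WT library, and the ratio of means was 2.91 (log2 difference of 1.38 ± 0.35 SE, adjusted p = 0.0204). The *C3* call was lost without WT replicate 1 (log2 difference 1.24, adjusted p = 0.0639) and with all 64 libraries in 1 fit (adjusted p = 0.149). *C3ar1* was at 136, 144, 99.0 and 136 in KI and 79.9, 68.8, 71.9 and 84.6 in WT libraries (log2 difference of 0.74 ± 0.15 SE, adjusted p = 0.00869), with no overlap. The other anaphylatoxin receptor, *C5ar1*, was at 33.6, 51.4, 30.7 and 45.2 in KI and 26.4, 46.6, 41.8 and 34.7 in WT libraries, and the groups overlapped (interval of the log2 difference -0.43 to 0.64, adjusted p = 0.82). *Serping1* also overlapped, at 458, 352, 439 and 363 in KI and 374, 245, 480.0 and 303 in WT libraries (interval -0.16 to 0.63, adjusted p = 0.418). KI libraries lay wholly above WT for 6 of 8 members and for 11.8% of all genes, and the median log2 difference of the members was 0.69 beside 0.00374 over all genes.

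The change of the genotype difference with age was tested as an interaction. From PWK 7 to 14 in the hippocampus it was called for *C4b* (log2 difference of 1.71 ± 0.29 SE, adjusted p = 0.00159), the only member of 8, where 10.3% of genes were called. It held in all 16 fits that left out 1 library. For the C1q chains the interaction was 1.16, 1.17 and 0.99 (adjusted p = 0.138, 0.124 and 0.206), and without KI replicate 1 of PWK 14 *C1qa* and *C1qb* were called (0.64 and 0.66, adjusted p = 0.0219 and 0.0177). For *C3ar1* it was 1.31 (adjusted p = 0.0744), and without KI replicate 2 of PWK 14 it was called (1.60, adjusted p = 0.0194). In the cortex none of the members was called for this step, where 3.18% of genes were; 2 members had an unadjusted p under 0.05. *C4b* came closest (log2 difference 0.90 ± 0.25, adjusted p = 0.0634) and was called without PWK 7 WT replicate 3 (1.06, adjusted p = 0.0297) or PWK 14 KI replicate 3 (1.00, adjusted p = 0.0354). From PWK 14 to 28 no member was called in either region, where 0% of genes in the cortex and 0% in the hippocampus were called by limma. At an unadjusted p under 0.05 there were 2770 genes in the cortex and 2274 in the hippocampus, and no member among them. The interval for *C4b* in the hippocampus was -0.98 to 0.38, so that neither a rise nor a fall of the genotype difference between these ages was shown.

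Whether the genotype difference was larger in the hippocampus than in the cortex was also tested. At PWK 28 it was larger for *C1qb* (log2 difference of 0.57 ± 0.15 SE, adjusted p = 0.0335) and *C1qc* (log2 difference of 0.57 ± 0.13 SE, adjusted p = 0.0161), 2 of 8 members where 4.57% of genes were called. The *C1qc* call held in each of 16 fits that left out 1 library, and the *C1qb* call in 5. It was lost without cortical KI replicate 3 or 4, cortical WT replicate 1 or 2, hippocampal KI replicate 1, 2 or 4 or any hippocampal WT library, with adjusted p of up to 0.0744. *C1qa* had nearly the same difference but missed the threshold (0.57 ± 0.17, adjusted p = 0.0745), and was called without cortical KI replicate 1 (0.66, adjusted p = 0.0327) or hippocampal KI replicate 3 (0.70, adjusted p = 0.00968). *C3ar1* (0.67, adjusted p = 0.0886) was called only without hippocampal KI replicate 3 (0.80, adjusted p = 0.0403), and *C4b* was not called (0.61, adjusted p = 0.24). These fits treated the libraries as independent, though each mouse gave both regions. Calls of *C4b* and *C1qa* changed with the replicate number as a block, as given below. At PWK 14 no member was called by limma, where 2.85% of genes were and 3 members, *C1qa*, *C1qb* and *C4b*, had an unadjusted p under 0.05. With all 64 libraries in 1 fit the members called were 0 at PWK 28 and 5 at PWK 14.

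Among themselves, the C1q chains tracked each other most closely. Over the 64 libraries the Pearson correlation of log2 values was 0.99 between *C1qa* and *C1qb*, 0.98 between *C1qa* and *C1qc* and 0.97 between *C1qb* and *C1qc*, and 0.96, 0.95 and 0.97 after removal of the group means. These libraries share regions, ages and mice, and the values are a description. *C4b* correlated with *C1qa* at 0.82 and, without the group means, at 0.63. *C5ar1* was the least like the others, with 0.37 to 0.52 over libraries, and its counts were among the lowest. Likeness to each member was ranked over 14073 other genes with a mean of at least 50. Among the genes most like the C1q chains were the integrin chain gene *Itgb2*, part of complement receptor 3, for *C1qa* and *C1qb* (0.95 and 0.96) and *Tyrobp*, which encodes a microglial signalling adaptor, for *C1qc* (0.95). The cathepsin gene *Ctsd* was near *C1qa* (0.94), the macrophage gene *Mpeg1* near *C1qb* (0.96) and the cathepsin gene *Ctsz* near *C1qc* (0.94). For *C4b* the nearest were *Cd81*, *Gpnmb* and *Nrip2* (0.94, 0.94 and 0.93). *Serping1* was most like *Cd63* and *Pbxip1* (0.88 and 0.87). *C3* was nearest to *Rhob*, *Hist1h2bc* and *Itpkb* (0.79, 0.77 and 0.77), *C3ar1* to *Lgals1*, *Elf4* and *Ctsz* (each 0.77) and *C5ar1* to *Zmpste24*, *Nfkbia* and *Smim3* (0.65, 0.62 and 0.61). Without hippocampal KI replicate 1 of PWK 14 the values for *C3ar1* fell to 0.65, 0.65 and 0.64, while those of the C1q chains with the genes named were 0.91 to 0.95.

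Markers of glia were set beside these differences, because the members are made by particular cells. All 9 defining markers listed here (*Aif1*, *P2ry12*, *Tmem119*, *Cx3cr1*, *Gfap*, *Ttr*, *Hbb-bs*, *Col1a1* and *Mrc1*) were above 0 in every library. In the hippocampus at PWK 28, 4 of 10 microglial markers were called higher in KI, among them *Cx3cr1* (0.36, adjusted p = 0.0089) and *Aif1* (0.61, adjusted p = 0.012), and none lower. *P2ry12* (0.06, adjusted p = 0.654) and *Tmem119* (0.18, adjusted p = 0.0996), markers of homeostatic microglia, were not called. The summed level of the 10 microglial markers was 13779 to 15737 in KI and 11713 to 12510.5 in WT libraries, with no overlap. Of 8 markers of activated microglia, 6 were called higher and 1 lower, and their sum was 2041 to 3054 in KI and 2261 to 2582 in WT libraries. Of 8 astrocyte markers 4 were called higher, among them *Gfap* (2.00, adjusted p = 3.35e-07), and the astrocyte sum was 79422 to 92095 in KI and 46111 to 47656 in WT libraries. *Gfap* alone was at 32067 to 44711 in KI and 8803 to 9894 in WT libraries, much of the difference between the sums. The part of glial number or state in the rise of the C1q chains, *C3*, *C4b* and *C3ar1* was not tested.

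At PWK 14 in the hippocampus 0 of 10 microglial markers were called (sum 10767 to 28612 in KI and 10354 to 12515 in WT), and *Cx3cr1*, *Aif1*, *P2ry12* and *Tmem119* had adjusted p between 0.24 and 0.477 by limma. Of the activated set 1 was called higher and 1 lower, with sums of 1543 to 8401 and 2155 to 2384. The astrocyte sum was 82111 to 259284 in KI and 44473 to 49072 in WT libraries, and 3 of 8 markers were called higher, with *Gfap* at 2.75 (adjusted p = 0.00129). Much of the difference between these sums was *Gfap* itself, at 40059 to 131431 in KI and 7502 to 9231 in WT libraries. In the cortex the microglial sums overlapped at PWK 14 (11114 to 12351 in KI and 11277 to 13701 in WT) and PWK 28 (11411 to 12896 and 12164 to 13257), where 0 and 1 of 10 were called. Of the activated set 1 of 8 was called higher at both ages and 1 lower at PWK 28, with sums of 1255 to 1429 against 1129 to 1231 and 1449.5 to 2063 against 1371 to 1784. *Gfap* was higher in KI cortex at both ages (1.56 and 1.52, adjusted p = 0.0112 and 0.00148), and the astrocyte sums were 32503 to 41889 against 32314 to 37878 and 34542 to 44184 against 32642 to 38746. Of 4 fibroblast markers 3 were called higher in KI cortex at PWK 14 and 2 at PWK 28, with sums of 1276 to 3019 against 865 to 1418 and 2045 to 2636 against 1105 to 2100.4. All 5 erythrocyte markers were called lower in KI cortex at PWK 28 (sum 3255 to 6609 against 8514 to 9786). The part of any of these in the *C4b* difference was not tested.

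Of the remaining lists, choroid plexus markers had 0 of 5 called in each of these 4 comparisons, with hippocampal sums at PWK 28 of 60808 to 104230.2 in KI and 36915 to 125611 in WT. Border macrophage markers had 1 of 4 called higher in the cortex at PWK 28 and in the hippocampus at PWK 14, and monocyte and neutrophil markers 0 of 4 throughout, with sums between 9.77 and 101. Endothelial markers had 2 of 4 called lower in the cortex at PWK 14, and oligodendrocyte markers 1 of 5 called higher in the hippocampus at PWK 28. Neuronal markers had 1 of 5 called higher in the cortex at both ages, 1 lower in the hippocampus at PWK 14, and 2 higher and 1 lower there at PWK 28. Erythrocyte markers had 0 of 5 called at PWK 14 in either region and 2 lower in the hippocampus at PWK 28, and fibroblast markers 2 of 4 higher in the hippocampus at PWK 14 and 1 of 4 at PWK 28.

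Over all 64 libraries the log2 level of *C4b* correlated with *Gfap* at 0.81, and at 0.78 after removal of the group means. The C1q chains correlated with the microglial chemokine receptor gene *Cx3cr1* at 0.82, 0.80 and 0.85 for *C1qa*, *C1qb* and *C1qc*, with *Tmem119* at 0.86, 0.89 and 0.83, and with *P2ry12* at 0.58, 0.62 and 0.56. With the astrocyte marker *Gfap* they correlated at 0.55, 0.51 and 0.56. After removal of the group means, *C1qa* correlated with *Cx3cr1* at 0.85, *Tmem119* at 0.76, *P2ry12* at 0.31 and *Gfap* at 0.70. Without hippocampal KI replicate 1 of PWK 14, the value for *C4b* and *Gfap* was 0.78 (0.71 after removal of the group means) and that for *C1qa* and *Cx3cr1* was 0.72 (0.70 after removal). The values for *C1qa* after removal were then 0.53 with *Tmem119*, 0.26 with *P2ry12* and 0.55 with *Gfap*.

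**Figure D5:**
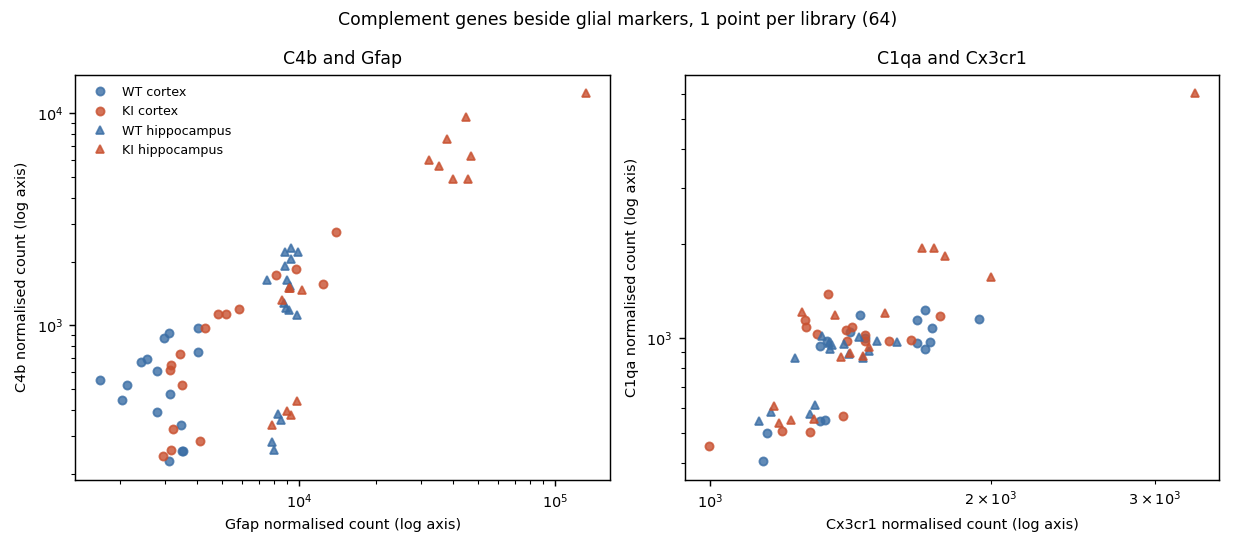
Normalised count (log axes) of *C4b* against the astrocyte marker *Gfap* (left) and of *C1qa* against the microglial marker *Cx3cr1* (right), 1 point per library, with colour for the genotype and shape for the region. The 8 KI hippocampal libraries of PWK 14 and 28 sit apart at the upper right of the left panel, some of them lie among the other libraries in the right panel, and the point at the far upper right of both is KI replicate 1 of PWK 14.

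The other genes of the complement system were then counted. The list held 50 further complement genes, 37 of them in the table. None was called by limma in KI against WT mice at PWK 1 or 7 in either region, where 4 and 7 in the cortex and 5 and 6 in the hippocampus had an unadjusted p under 0.05. In the cortex at PWK 14, 3 of 36 tested were called higher and 1 lower, beside 5.18% of all genes: the protease genes *C1ra* (1.47, adjusted p = 0.00157), which encodes the C1r that C1q activates, and *Masp1* (0.62, adjusted p = 0.0035) of the lectin pathway, and *Srpx2* (1.03, adjusted p = 0.0237), whose product binds C1q, rose, while *Cd59a*, an inhibitor of the terminal complex, fell (-0.58, adjusted p = 0.0407). *C1ra* was at 254 to 396 in KI and 91.5 to 135 in WT libraries, so the groups did not overlap. In the cortex at PWK 28, 5 of 37 rose and 4 fell, beside 22.2% of all genes called, so that the share of the list was near that of all genes. *Srpx2* rose again (1.52, adjusted p = 0.00366), and so did *C4bp* (2.11) and *Hc*, the C5 gene (1.82). Both were low, with *C4bp* at 3.51 to 5.93 in KI and at most 0.819 in WT libraries, and *Hc* at 7.23 to 30.7 in KI and 1.71 to 10.5 in WT libraries. Properdin (*Cfp*), a stabiliser of the alternative pathway convertase, fell (-0.76, adjusted p = 0.0202), as did *Cd46* (-0.63) and *Sez6l* (-0.50).

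In the hippocampus at PWK 14, 4 of 37 rose and 4 fell, beside 15.6% of all genes called (1407 higher and 1463 lower). *C1ra* (1.07, adjusted p = 0.0359), the gene of the C1r protease, and *C1s1* (0.87, adjusted p = 0.0296), which encodes C1s, rose most. *Csmd3* (-0.59), *Cfp* (-0.53) and *Vtn* (-0.47) fell most. In the hippocampus at PWK 28, 8 of 37 rose and 3 fell, beside 15.8% of all genes called. The integrin chain gene *Itgax*, part of complement receptor 4, rose most (2.41, adjusted p = 0.0194). *Itgax* was also on the list of activated microglia markers, so that it is counted in both lists. Its KI libraries ranged from 10.9 to 106 and overlapped the WT range of 7.33 to 12.5. *C4bp* (1.26, adjusted p = 0.0136) and *Srpx2* (1.04, adjusted p = 0.005) followed. *Cfp* fell again, with WT libraries at 226 to 275 and KI libraries at 97.2 to 186 (-0.86, adjusted p = 0.01), and so did *Csmd3* (-0.43) and *Cr1l* (-0.29). The median log2 difference of the list was 0.06, 0.04, 0.26 and 0.09 in the cortex at PWK 14 and 28 and the hippocampus at PWK 14 and 28, in this order. *C4a*, the paralog of *C4b*, was not called in any of these 4 comparisons (-0.20, -0.46, -0.07 and -0.14), at 82.1 to 159 in KI and 113 to 145 in WT hippocampus at PWK 28.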

How the data were processed

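Frontal cortex and hippocampus of 4 KI and 4 WT mice at each of 4 ages gave 64 libraries, each mouse giving both regions. Per the labels, RNA was sequenced as 101-base paired ends from a TruSeq stranded mRNA library. The methods of the study name a TruSeq stranded total RNA kit instead, so that the selection of RNA is uncertain. The deposited values are a signal scale: transcript abundances that the authors estimated with Salmon (0.11.2 in the submitters' processing notes) on GRCm38, summed per gene and normalised over all libraries with DESeq2 (1.19.11 in those notes) in R (3.6.0). Software versions given with the study differ from these, and the notes are followed here. The estimated counts before scaling and the read depth cannot be taken from these values, so no counting interval is given. The table held 18432 genes, with no gene under a mean of 4.25, and no libraries with identical values.

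KI was compared with WT at each age and region, genotype by age and genotype by region interactions were tested, and WT ages and regions were compared. The 24 comparisons used limma (3.58.1, R 4.3.3) with a mean-dependent prior on log2(value + 1), on genes with a mean of at least 1 in the compared libraries, and a 2-sided Benjamini-Hochberg adjusted p under 0.05 over all genes tested. Differences on this scale understate changes of low genes. Interactions and neighbouring ages reuse the same libraries, so that these comparisons share samples. The fit was tested on simulated data. Scripts used Python 3.11.15, pandas 2.3.3 and numpy 2.4.6. Alternatives were all 64 libraries in 1 fit, a pseudocount of 0.5, no filter, equal library totals, array weights, the replicate number as a block, and each library left out in turn.

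The members, the list of other complement genes and the cell type marker lists were chosen with earlier results of these data known. Named genes were all 8 members, up to 3 called other complement genes per direction in each KI against WT comparison, the 3 genes most like each member by Pearson correlation of log2 values, and 9 defining markers. Some genes that this rule names are not reported here. Of 50 other complement genes, 13 were not analysed here, and 62 of 63 marker genes were used. Values per kb divide by the summed exon length of GENCODE vM21. 18420 of 18432 identifiers matched that annotation. Equal replicate numbers were not taken as pairs: deviations of same-numbered cortex and hippocampus libraries correlated above 0.1 in 17 of 32 pairs, and those of KI and WT libraries in 10 of 32.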

Additional observations from a re-analysis of the deposited data

Results flagged for a closer look

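Of 128 sets of 4 libraries (8 genes in 16 groups), 16 held a library whose gap to the nearest of the others passed Dixon's 95% critical value. Chance flags about 1 in 20 sets, and the genes and groups are not independent.

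KI replicate 1 of the hippocampus at PWK 14 was the highest of its group for all 8 genes and passed this limit for 5 of them: 6047 for *C1qa* (others 1189 to 1941), 5365 for *C1qb* (1132 to 1734), 5143 for *C1qc* (1024 to 1699), 703 for *C3* (70.0 to 147) and 115 for *C5ar1* (25.6 to 30.0). The same library had 8401 in 8 activated microglia markers against 1543 to 3863 in the other KI libraries, 133517 in 5 neuronal markers against 147006 to 176784, 85306 in 5 oligodendrocyte markers against 127601 to 149999 and 1912 in 5 choroid plexus markers against 18124 to 99275. In the WT libraries of that region and age the choroid plexus sum ran from 2075 to 105330, so that low sums also occurred in WT. The part of tissue composition in the complement values of this KI library was not tested.

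The other KI libraries were cortical replicate 2 at PWK 7 (*C1qa* 1174, others 979 to 983), cortical replicate 1 at PWK 28 (*C1qa* 1379, others 1027 to 1087), hippocampal replicate 2 at PWK 1 (*C1qc* 680.1, others 630.3 to 634) and cortical replicate 2 at PWK 14 (*C5ar1* 17.2, others 24.1 to 25.1).

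Among WT libraries of the cortex these were replicate 1 at PWK 1 (*C3ar1* 63.7, others 73.3 to 75.1), replicate 2 at PWK 14 (*C3* 26.4, others 3.13 to 6.68), replicate 1 at PWK 14 (*C5ar1* 15.4, others 23.7 to 25.2), replicate 3 at PWK 28 (*C5ar1* 69.1, others 25.9 to 30.1) and replicate 1 at PWK 28 (*Serping1* 293, others 177 to 189.5). In the WT hippocampus they were replicate 3 at PWK 14 (*Serping1* 331, others 257 to 267) and replicate 1 at PWK 28 (*C3* 48.3, others 71.0 to 72.6), the library without which the *C3* call at PWK 28 was lost.

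In 3 cases the genotype difference itself differed between ages or regions by the interaction term of limma. That of *C4b* was larger by 1.71 at PWK 14 than at PWK 7 in the hippocampus (log2, adjusted p = 0.00159). At PWK 28 that of *C1qb* was larger by 0.57 (adjusted p = 0.0335) and that of *C1qc* by 0.57 (adjusted p = 0.0161) in the hippocampus than in the cortex. The *C1qb* call held in 5 of 16 fits that left out 1 library. Both calls were lost with all 64 libraries in 1 limma fit (adjusted p = 0.240 and 0.242).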

How the results depend on the processing

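Of 384 recomputed counts of called members, 339 stayed within 1.5 times the reported count. Of 38 called differences of single members, 25 held in every alternative and 13 were lost at least once, in 50 of 556 fits. No called difference changed sign, while 152 of 2516 refits of uncalled ones did.

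With all 64 libraries in 1 fit, the number of members called went from 2 to 6 for KI against WT in the hippocampus at PWK 14, from 1 to 5 for the change from PWK 7 to 14 there, from 0 to 5 for the region interaction at PWK 14 and from 2 to 0 at PWK 28, from 1 to 2 for WT cortex at PWK 28 against 14, from 1 to 0 and from 2 to 1 for WT hippocampus at PWK 14 against 7 and 28 against 14, and from 4 to 1 for the WT regions at PWK 7. Calls over all genes then went from 951 to 1946 for KI against WT in the cortex and from 2870 to 6050 in the hippocampus at PWK 14. Equal library totals gave 2 in place of 1 for WT cortex at PWK 28 against 14 and for the WT regions at PWK 1. Array weights gave 3 in place of 1 for the hippocampal change from PWK 7 to 14 and 2 in place of 1 for the WT regions at PWK 1. Without the filter, 1 in place of 2 members was called for WT hippocampus at PWK 28 against 14. The causes were not tested.

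With the replicate number as a block the counts were 1 in place of 0 for the region interaction at PWK 14 (*C4b*, adjusted p = 0.0303 by limma), 4 in place of 2 at PWK 28 (with *C1qa*, adjusted p = 0.0192, and *C4b*, adjusted p = 0.0202), and 1 in place of 2 for WT hippocampus at PWK 28 against 14. *C1qa* in WT hippocampus against cortex at PWK 7 was also lost (adjusted p = 0.0573 by limma). The mean correlation of same-numbered deviations was 0.14 between regions and 0.026 between genotypes, and 38 of 64 libraries correlated best with their own number in the other region (8 of 8 in KI and 0 of 8 in WT at PWK 28), a hint from the data and not the design. All genes called in the KI hippocampus at PWK 14 fell from 2870 to 1788 under the block.

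Leaving out 1 library gave 1 to 4 called members for KI against WT in the hippocampus at PWK 14, 0 to 1 for the change from PWK 7 to 14 in the cortex and 1 to 3 in the hippocampus, 1 to 4 for the region interaction at PWK 28, and 1 to 2 for PWK 28 against 14 in WT cortex and in WT hippocampus.

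Equal library totals moved the share of higher calls over all genes for KI against WT from 47.8% to 60.4% in the cortex at PWK 14, from 54.8% to 43.7% there at PWK 28 and from 56.3% to 40.6% in the hippocampus at PWK 28, and for the region interaction at PWK 14 from 57.7% to 47.2%, while the members called in these comparisons stayed at 1, 1, 6 and 0.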

Other observations

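The share of *C4a* in the summed normalised counts of *C4a* and *C4b* was lower in KI than in WT libraries at PWK 14 and 28. In the WT hippocampus it was 14.3% to 23.5% at PWK 1, 2.76% to 6.83% at PWK 7, 5.02% to 9.32% at PWK 14 and 4.63% to 6.58% at PWK 28 over 4 libraries each, and in the KI hippocampus it was 1.2% to 1.85% at PWK 14 and 1.03% to 2.09% at PWK 28. In the WT cortex it was 19.2% to 21.9% at PWK 1 and 6.83% to 15.4% at PWK 7. In the cortex at PWK 14 it was 5.44% to 9.43% in KI and 13.2% to 18.4% in WT libraries, and at PWK 28 3.14% to 6.21% in KI and 8.88% to 15.97% in WT libraries. No KI library overlapped WT at PWK 14 or 28 in either region. *C4b* was called higher in KI at these ages in both regions and *C4a* was not called. The lower share therefore largely restates the *C4b* difference and is not a separate result. Because the paralogs share much of their sequence, the share depends on how reads were divided between them, and it was not tested.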
